A study of Mus musculus with 3 samples.

Results

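The genes described here encode the enzymes and transporters that build glycosaminoglycan chains and sulfate them. They are 36 genes taken by symbol, and all 36 were found among the 30406 genes listed in each of the 3 libraries. Of these, 8 supply sugar nucleotides and activated sulfate, 5 build the linker to the core protein, 6 start and extend chondroitin chains, 8 sulfate or epimerise chondroitin and dermatan chains, and 9 build, sulfate or trim heparan sulfate chains.

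The cells came from whole intervertebral discs of mice at postnatal day 30. All animals had the genotype shh-cre:R26R-tdTomato, in which Cre from the Shh gene switches on the red reporter tdTomato in cells with a history of Shh expression, among them the notochord and the nucleus pulposus (NP) cells that descend from it. No animal was treated, and tdTomato+ cells were enriched by sorting after collagenase digestion. The 3 libraries were replicates of 1 group, each from pooled litter-matched animals, so that n counts pools and the comparisons below are between cell classes of the same pools.

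Glycosaminoglycans are long sugar chains carried by proteoglycans such as aggrecan. Xylose is first placed on a serine of the core protein, a short linker follows, and polymerases then extend the chain as chondroitin or as heparan, before sulfotransferases add sulfate from the donor PAPS. In the nucleus pulposus the dense negative charge of sulfated chondroitin chains on aggrecan holds water, which lets the disc bear load.

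Cells were placed in 5 classes by fixed marker genes. The NP-like class, which needed 3 of Krt8, Krt18, Krt19 and T and at least 1% mitochondrial counts, held 109, 122 and 8 cells in libraries 1, 2 and 3. The chondrocyte-like class held 784, 310 and 61 cells, the osteoblast-like class 33, 190 and 605, the marrow stromal-like class 27, 31 and 62 and the blood-like class 3217, 7388 and 7387. Of the kept cells, 18.5%, 21.0% and 17.9% were placed in no class, among them 143, 114 and 140 cells that met 2 class rules. These shares do not count the cells with the NP markers but under 1% mitochondrial counts, which were also left out of the 5 classes. Counts of unique molecular identifiers (UMIs) were summed per class and library. Sums of under 10 cells were left out, so the NP-like class rests on libraries 1 and 2 (n = 2) and every other class on 3 libraries (n = 3). Sums held between 369314 UMIs (osteoblast-like, library 1) and 97964309 UMIs (blood-like, library 2).

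Marker levels of the classes are given as a description. The class rules used these same genes, so high levels of a class's own markers follow from the rules and do not test its identity. All 4 NP markers were found in both NP-like sums, with 3689 and 7498 summed CPM (the usual scaling of a gene's UMIs to a common total), against at most 11.6 CPM in any other class. The NP-like sum of library 1 also held the 6 chondrocyte markers at 2442 summed CPM, against 91.8 CPM in library 2, while chondrocyte-like sums held between 11056 and 12023 CPM. In that library 22 of the 109 NP-like cells also held at least 3 chondrocyte markers, against 2 of 122 in library 2. Such cells are said below to meet the chondrocyte rule. Chondrocyte-like cells themselves could hold at most 1 NP marker. Tendon or annulus markers (Scx, Tnmd, Mkx, Fmod and Prg4) summed to 3276, 3567 and 5328 CPM in chondrocyte-like and 1829 and 1447 CPM in NP-like sums. In the other classes they reached at most 379 CPM. Fmod, also among the core proteins read below, made up most of the NP-like sums of these markers. With the scaling described below, it averaged 1561 CPM in NP-like and 2953 CPM in chondrocyte-like cells. In the NP-like sum of library 2, 1 of the 5 markers had no UMI. Chondrocyte-like sums held osteoblast markers at 731, 1085 and 192 CPM. In osteoblast-like sums these were lower in library 1 (8833 summed CPM) than in libraries 2 and 3 (37460 and 48970 CPM). The marrow stromal-like sums of libraries 2 and 3 held red cell markers at 28620 and 8279 CPM. The NP-like sums held red cell markers at 2802 and 7314 CPM, against 929, 1279 and 211 CPM in chondrocyte-like and 410, 5697 and 6373 CPM in blood-like cells. Libraries 2 and 3 shared 224 cell barcodes, and library 1 shared 24 and 29 with them. The part of these differences in the results was not tested, except that the fit was repeated without the NP-like cells that met the chondrocyte rule and without shared barcodes.

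Levels are given as CPM scaled by edgeR's trimmed mean of M values (TMM), in the order of libraries 1 and 2 for NP-like and 1, 2 and 3 for all other classes. A UMI counts a molecule at its 3′ end without a length term, so levels are compared between classes and not between genes. A gene is called where edgeR's quasi-likelihood test gave a Benjamini-Hochberg adjusted p under 0.05 over all 13310 genes tested. All 36 genes passed the filter on low counts.

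Summed over the 36 genes, the NP-like and chondrocyte-like (disc) classes had the highest levels. Disc is only a short name for these classes, and where in the dissected tissue their cells lay was not tested. In a sum of cells, more cells that express a gene cannot be told apart from more RNA per cell. The sum was 1915 and 2024 CPM in NP-like cells and 2508, 2173 and 1877 CPM in chondrocyte-like cells. It was 866, 1235 and 1301 CPM in osteoblast-like, 767, 683 and 1040.1 CPM in marrow stromal-like and 631, 578 and 593 CPM in blood-like cells. Every NP-like and chondrocyte-like sum lay above every sum of the other 3 classes, and the NP-like values fell within the chondrocyte-like range. The means were 1969.5 ± 77.5 CPM (SD, n = 2) in NP-like and 2186 ± 316, 1134 ± 235, 830.0 ± 187 and 601 ± 27.6 CPM (SD, n = 3 each) in chondrocyte-like, osteoblast-like, marrow stromal-like and blood-like cells.

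Linker genes summed to 364 and 460.4 CPM in NP-like cells and 359, 299 and 272 CPM in chondrocyte-like cells, with no overlap. The chondroitin and dermatan sulfation genes summed to 279 and 261 CPM in NP-like cells and 498, 445 and 345 CPM in chondrocyte-like cells, again with no overlap and in the other direction. Precursor genes (763 and 533 against 995, 793 and 576 CPM) and chondroitin extension genes (248 and 483 against 322, 341 and 341 CPM) overlapped between NP-like and chondrocyte-like cells. The heparan genes, at 261 and 287 CPM in NP-like and 335, 295 and 343 CPM in chondrocyte-like cells, were the one step where marrow stromal-like cells, at 237, 278 and 357 CPM, reached the same range. The position of marrow stromal-like cells rests on TMM, and in unscaled CPM they are higher. Their TMM factors were 1.56, 1.36 and 1.51, against at most 1.03 in NP-like and chondrocyte-like sums. All step sums were compared as values with no test. Xylt1 made up 229.6 and 330.1 CPM of the linker sum in NP-like cells, against 239, 156 and 125 CPM in chondrocyte-like cells. No single gene of the linker or the sulfation step was called between NP-like and chondrocyte-like cells.

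**Figure D1:**
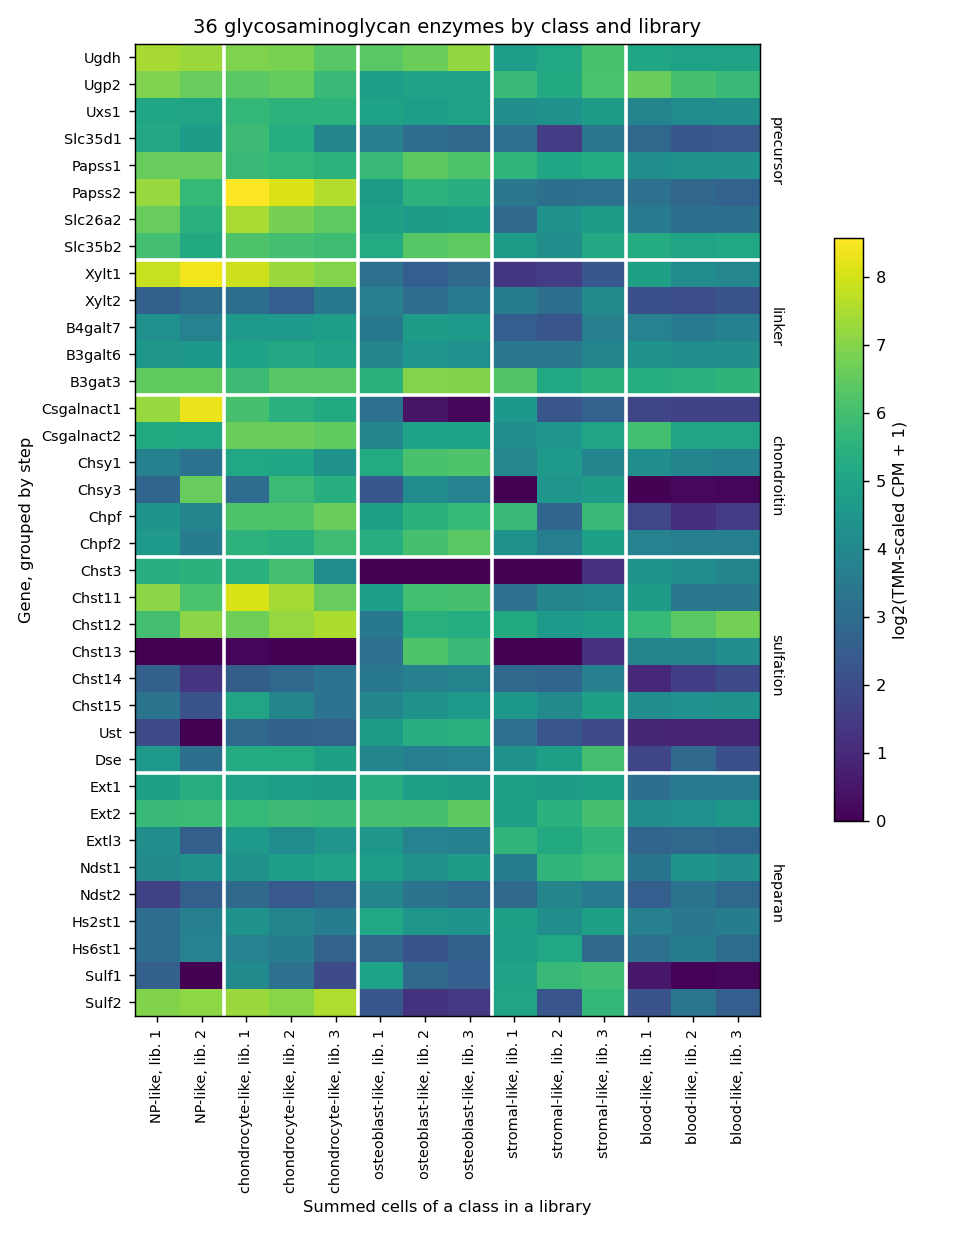
Levels of the 36 genes as log2(TMM-scaled CPM + 1), with 1 row per gene grouped by step and 1 column per class and library. Xylt1, Csgalnact1 and Sulf2 are bright in NP-like and chondrocyte-like columns and dark in osteoblast-like columns, and Chst3 and Chst13 show opposite patterns in those 3 classes.

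Between NP-like and chondrocyte-like cells the test had little power for small changes. In simulated counts it called 8% of genes with a log2 change of 1 and 6% at -1, so a gene not called may still differ. Of the 36 genes none was called higher and 4 (11.1%) were called lower in NP-like cells, while 4.63% and 2.66% of all genes were called in those directions (7.29% in all). An unadjusted p under 0.05 was found for 12 of the 36. The 4 were Papss2, Csgalnact2, Chsy1 and Chpf. The median log2 fold change was -0.52 over the 36 genes and -0.04 over all genes. Without libraries 1, 2 and 3 in turn the count was 13, 0 and 0. It was 1 (Papss1, higher) in the fit without the library block, 8 (2 higher, 6 lower) without the NP-like cells that also met the chondrocyte rule, 8 with the 8 NP-like cells of library 3 kept, 11 with no floor on mitochondrial counts, and 7 without barcodes found in 2 libraries. Over all genes these 5 settings called 676 of 13310, 1618 of 13346, 1157 of 11436, 1918 of 12666 and 1059 of 13273. The fit as reported called 970 of 13310, and the fit without library 3 called 347 of 12926. Calls over all genes also rose without library 1 and fell without library 2. In both of those fits the NP-like class is a single sum.

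Each of the other comparisons called more of the 36 genes. Against osteoblast-like cells NP-like cells had 8 genes higher and 6 lower, where 11% and 7.86% of all genes were called (18.8% in all), and the median log2 fold change was 0.20 over the 36 and -0.06 over all genes. Against marrow stromal-like cells 12 were higher and 4 lower in NP-like cells, beside 7.56% and 6.21% of all genes (13.8% in all) and medians of 0.60 and -0.05. Against blood-like cells 17 were higher and 2 lower in NP-like cells, beside 24.1% and 25.9% of all genes (50% in all) and medians of 1.04 and -0.20. Leaving out libraries 1, 2 and 3 gave 16, 4 and 11 calls against osteoblast-like, 16, 2 and 8 against marrow stromal-like and 18, 16 and 18 against blood-like cells. Without library 1 or 2 the NP-like class is a single sum whose spread is taken from the other classes. Without library 3 the calls over all 12926 genes tested were 1285, 773 and 5292 against osteoblast-like, marrow stromal-like and blood-like cells. Without library 2 the calls over all genes also fell in each of these comparisons. Without library 1 they rose against osteoblast-like and marrow stromal-like cells and fell against blood-like cells.

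Chondrocyte-like cells had 14 genes higher and 3 lower than osteoblast-like cells, where 10.4% and 7.65% of all genes were called (18.1% in all), with medians of 0.34 over the 36 and -0.04 over all genes. They had 28 genes higher and 1 lower than blood-like cells, where 26.1% and 31.7% were called (57.8% in all), with medians of 1.499 and -0.21. Leaving out libraries 1, 2 and 3 gave 19, 9 and 12 and 29, 22 and 22 calls in these 2 comparisons. Without library 3 the calls over all 12926 genes tested were 1074 and 5552. In both comparisons the calls over all genes rose without library 1 and fell without library 2. The 4 comparisons of NP-like cells share the NP-like sums, and both comparisons of chondrocyte-like cells share theirs.

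**Figure D2:**
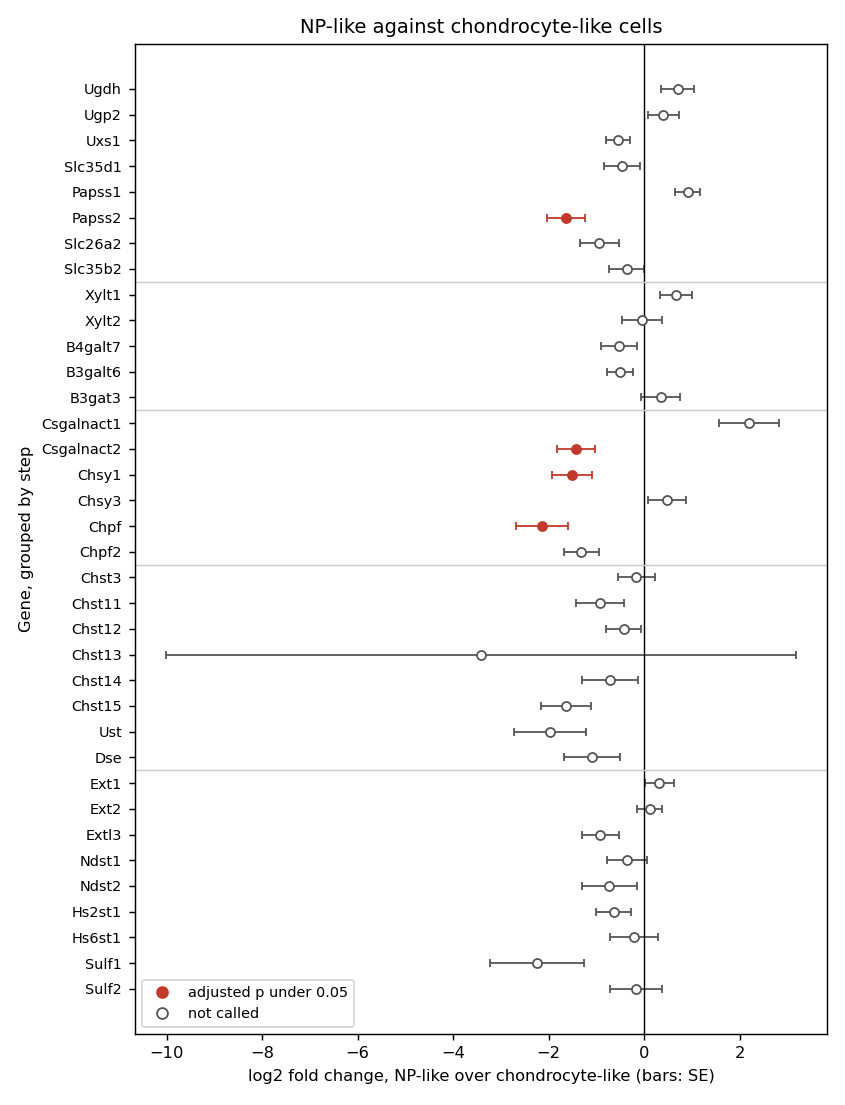
Log2 fold change of each of the 36 genes, NP-like over chondrocyte-like, from the fit over all classes, with bars for the standard error and filled points for adjusted p under 0.05. The 4 called genes (Papss2, Csgalnact2, Chsy1 and Chpf) lie left of 0, and Csgalnact1 lies farthest to the right at 2.20. Chst13 has a wide bar because it rests on 0 UMIs in NP-like and 1 in chondrocyte-like cells.

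Activated sulfate, the substrate of every sulfotransferase, was the 1 place among the precursor genes where NP-like and chondrocyte-like cells differed by the test. PAPS is made by 2 synthases, Papss1 (ENSMUSG00000028032, chr3:131564768-131643671, plus strand) and Papss2 (ENSMUSG00000024899, chr19:32595790-32667187, plus strand). Papss2 is the synthase whose loss causes short-limbed skeletal dysplasia in mouse and human. It had 150.4 and 52.99 CPM in NP-like cells, against 378, 279 and 189.5 CPM in chondrocyte-like cells. It had 24.3, 45.5 and 39.1 CPM in osteoblast-like, 9.79, 7.896 and 8.12 CPM in marrow stromal-like and 8.16, 6.09 and 5.54 CPM in blood-like cells. All 3 chondrocyte-like values lay above both NP-like values, and both NP-like values above all others. Papss2 was lower in NP-like than in chondrocyte-like cells by edgeR's quasi-likelihood test, with a log2 fold change of -1.64 (SE 0.39, adjusted p = 0.0267), and of -2.28, -1.06 and -1.76 without libraries 1, 2 and 3, the call being lost without libraries 2 and 3. In unscaled CPM the NP-like level of library 1 was 154.7 with and 80.1 without the 22 cells that met the chondrocyte rule, and without such cells the log2 fold change was -2.24 (adjusted p = 0.000786).

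Papss1 ran the other way between these classes. It had 94.8 and 95.2 CPM in NP-like cells, against 54.5, 49.5 and 45.6 CPM in chondrocyte-like cells, with no overlap between these classes. The log2 fold change was 0.91 (SE 0.26) with an adjusted p of 0.0521 and was not called. It was 0.96, 0.92 and 0.92 without library 1, in the fit without the library block and without the NP-like cells that met the chondrocyte rule, and was called each time (adjusted p = 0.0444, 0.0496 and 0.0325). Papss1 had 54.7, 84.6 and 71.2 CPM in osteoblast-like, 47.3, 31.6 and 37.9 CPM in marrow stromal-like and 18.2, 20.3 and 20.3 CPM in blood-like cells. Papss1 took 38.7 and 64.3% of the UMIs of the pair in NP-like cells, against 12.6, 15.1 and 19.4% in chondrocyte-like, 69.2, 65.04 and 64.6% in osteoblast-like, 82.9, 80 and 82.4% in marrow stromal-like and 69.1, 76.96 and 78.6% in blood-like cells. The NP-like shares lay above the chondrocyte-like ones, and the 95% exact binomial intervals did not overlap (33.4 to 44.2% and 57.3 to 70.8% in NP-like cells, against 11.6 to 13.6%, 13.1 to 17.2% and 13.7 to 26.3% in chondrocyte-like cells). Such intervals cover counting error only.

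The 250 bases before the annotated starts of this pair are shown because the share of Papss1 in the pair set NP-like apart from chondrocyte-like cells in libraries 1 and 2. They come from RefSeq for build GRCm38.p6, which lists 2 starts for each gene. Capitals mark ACAAT on either strand, the core bound by SOX factors, and TGTGGT on either strand, the core bound by RUNX factors. These motifs do not overlap here.
Papss1, first start (chr3:131564518-131564767, plus strand): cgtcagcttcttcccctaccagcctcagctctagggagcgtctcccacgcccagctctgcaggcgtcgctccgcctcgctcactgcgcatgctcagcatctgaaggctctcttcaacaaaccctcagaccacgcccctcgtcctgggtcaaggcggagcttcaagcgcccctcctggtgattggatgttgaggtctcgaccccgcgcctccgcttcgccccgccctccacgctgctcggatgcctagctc
Papss1, second start (chr3:131565782-131566031, plus strand): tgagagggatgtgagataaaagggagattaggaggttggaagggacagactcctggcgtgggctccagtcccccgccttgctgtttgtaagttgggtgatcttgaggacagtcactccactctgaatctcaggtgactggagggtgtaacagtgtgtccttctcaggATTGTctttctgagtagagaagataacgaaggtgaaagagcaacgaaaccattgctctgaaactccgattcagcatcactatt
Papss2, first start (chr19:32595465-32595714, plus strand): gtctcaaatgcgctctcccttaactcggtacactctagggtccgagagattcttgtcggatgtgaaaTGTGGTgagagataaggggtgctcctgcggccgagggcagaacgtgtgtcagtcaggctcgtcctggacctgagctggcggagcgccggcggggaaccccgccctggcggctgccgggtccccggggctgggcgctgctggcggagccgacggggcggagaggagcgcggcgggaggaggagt
Papss2, second start (chr19:32619755-32620004, plus strand): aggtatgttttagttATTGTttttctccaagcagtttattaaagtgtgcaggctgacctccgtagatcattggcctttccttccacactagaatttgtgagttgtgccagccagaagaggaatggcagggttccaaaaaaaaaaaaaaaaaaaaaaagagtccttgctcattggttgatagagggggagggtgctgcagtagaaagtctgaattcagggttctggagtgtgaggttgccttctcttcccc
The SOX core was found once at the second start of each gene and the RUNX core once at the first start of Papss2. Among all 32851 RefSeq windows of this length, 27.7% held the SOX core and 14.05% the RUNX core. Among the 35 windows of the 28 genes of the pathway that were matched, 5 (14.3%) and 2 (5.71%) did. The first starts were 65.2% (Papss1) and 67.6% (Papss2) G and C, the second starts 48.8% and 43.2%, and the median of all windows was 52.4%. A match of letters is a description, and which start was used was not measured by 3′ counts.

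Slc26a2 carries sulfate into the cell, and Slc35b2 carries PAPS into the Golgi. Slc26a2 had 94.8 and 42.2 CPM in NP-like cells, against 177, 111 and 86.9 CPM in chondrocyte-like cells. It had 28.4, 25.04 and 26.7 CPM in osteoblast-like, 6.53, 19.7 and 25.7 CPM in marrow stromal-like and 10.3, 7.81 and 7.94 CPM in blood-like cells. The NP-like and chondrocyte-like values overlapped between libraries, and both stood above the other classes. Against blood-like cells Slc26a2 was higher in NP-like cells, with a log2 fold change of 2.896 (SE 0.41, adjusted p = 0.000114), and of 2.45, 3.42 and 2.88 without libraries 1, 2 and 3, the call being kept each time. Slc35b2 had 62.96 and 35.8 CPM in NP-like cells, against 73.3, 63.8 and 58.4 CPM in chondrocyte-like cells. It had 36.5, 77.9 and 85.3 CPM in osteoblast-like, 24.5, 17.8 and 35.2 CPM in marrow stromal-like and 37.6, 31.1 and 34.3 CPM in blood-like cells. For Slc35b2 all classes overlapped with at least 1 other, and the gene was called only in chondrocyte-like over blood-like cells, at 0.95 (SE 0.31, adjusted p = 0.0183), and 0.98, 1.02 and 1.01 without libraries 1, 2 and 3, the call being lost without libraries 2 and 3.

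Among the sugar nucleotide genes Ugdh, which makes UDP-glucuronic acid, had 173 and 155 CPM in NP-like cells, against 121, 114 and 79.8 CPM in chondrocyte-like cells. It had 81.1, 98.8 and 144 CPM in osteoblast-like, 26.1, 33.6 and 67.6 CPM in marrow stromal-like and 31.9, 28.7 and 29.4 CPM in blood-like cells. Both NP-like values of Ugdh were above every value of the other classes, yet the difference from chondrocyte-like cells was 0.70 (SE 0.34, adjusted p = 0.269) and was not called. Against blood-like cells Ugdh was higher in NP-like cells, at 2.55 (SE 0.35, adjusted p = 7.62e-05), and 2.56, 2.75 and 2.45 without libraries 1, 2 and 3, the call being kept each time. Against marrow stromal-like cells Ugdh was also higher, at 2.08 (SE 0.38, adjusted p = 0.004), and 1.69, 2.09 and 2.46 without libraries 1, 2 and 3, the call being lost without library 2.

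Ugp2 makes UDP-glucose, which also feeds glycogen. It had 119 and 95.2 CPM in NP-like cells, against 82.9, 92.5 and 55.6 CPM in chondrocyte-like cells. It had 26.4, 29.3 and 29.7 CPM in osteoblast-like, 55.5, 35.5 and 70.3 CPM in marrow stromal-like and 99.97, 66.5 and 54.6 CPM in blood-like cells. Blood-like cells of library 1 reached the NP-like range, and osteoblast-like cells were lowest. Ugp2 was higher in NP-like than in osteoblast-like cells, at 1.803 (SE 0.34, adjusted p = 0.00294), and 1.64, 1.92 and 1.89 without libraries 1, 2 and 3, the call being lost without library 2. Uxs1, the UDP-xylose synthase, had 32.6 and 30.8 CPM in NP-like cells, against 50.7, 45.7 and 45.6 CPM in chondrocyte-like cells. It had 30.4, 26.5 and 29.9 CPM in osteoblast-like, 17.9, 19.7 and 25.7 CPM in marrow stromal-like and 13.5, 16.6 and 18.1 CPM in blood-like cells. The chondrocyte-like values of Uxs1 were above all others, and the NP-like values lay just above the osteoblast-like ones. Uxs1 was higher in NP-like than in blood-like cells at 1.04 (SE 0.25, adjusted p = 0.00409), and 0.93, 1.25 and 1.08 without libraries 1, 2 and 3, the call being lost without library 2. Slc35d1, a Golgi carrier of UDP-sugars needed for chondroitin in mouse cartilage, had 34.8 and 25.1 CPM in NP-like cells, against 57.8, 38.2 and 14.3 CPM in chondrocyte-like cells. It had 12.2, 7.41 and 6.46 CPM in osteoblast-like, 8.16, 1.97 and 9.47 CPM in marrow stromal-like and 6.46, 4.15 and 4.305 CPM in blood-like cells. Both disc classes were above the rest for Slc35d1, and it was higher in NP-like than in blood-like cells at 2.41 (SE 0.39, adjusted p = 0.000294), and 2.49, 2.36 and 2.52 without libraries 1, 2 and 3, the call being kept each time.

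Within the linker step 1 gene differed widely between classes. Xylt1 (ENSMUSG00000030657, chr7:117380979-117673580, plus strand) encodes a xylosyltransferase, the enzyme that places the first sugar. It had 229.6 and 330.1 CPM in NP-like cells, against 239, 156 and 125 CPM in chondrocyte-like cells. It had 8.11, 4.94 and 6.78 CPM in osteoblast-like, 1.63, 1.97 and 4.06 CPM in marrow stromal-like and 28.3, 16.6 and 14.8 CPM in blood-like cells. All NP-like and chondrocyte-like values were above 125 CPM and all osteoblast-like and marrow stromal-like ones under 9 CPM, with blood-like cells between. The NP-like values leave out cells with the NP markers but under 1% mitochondrial counts. In library 1 those cells had a lower Xylt1 level, which is given at the end. NP-like cells were higher than osteoblast-like cells at a log2 fold change of 5.31 (SE 0.399, adjusted p = 1.23e-05), and of 5.71, 4.55 and 5.57 without libraries 1, 2 and 3, the call being kept each time. They were higher than blood-like cells at 3.79 (SE 0.35, adjusted p = 3.32e-06), and 4.397, 3.26 and 3.72 without libraries 1, 2 and 3, the call being kept each time. In libraries 1 and 2 the marrow stromal-like sums held 2 UMIs of Xylt1 against 771 in the NP-like sums, a ratio of 158 with a counting interval of 43.6 to 1306.

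The difference of Xylt1 between NP-like and chondrocyte-like cells, 0.66 (SE 0.33, adjusted p = 0.292), was not called. Without library 1, which leaves 1 NP-like sum, this difference was 1.18. Its paralogue Xylt2 ranged from 3.12 to 16.2 CPM over all sums, with the 3 highest class means in marrow stromal-like, osteoblast-like and chondrocyte-like cells. Xylt1 took 97.8 and 97.9% of the UMIs of the pair in NP-like and 96.96, 96.98 and 92.6% in chondrocyte-like cells, against 40, 40 and 38.5% in osteoblast-like, 12.5, 20 and 20% in marrow stromal-like and 89.7, 84.2 and 80.3% in blood-like cells. The shares in osteoblast-like and marrow stromal-like cells rest on between 5 and 161 UMIs a sum.

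The later linker enzymes had narrower ranges. B4galt7, which adds the first galactose, had 19.3 and 12.9 CPM in NP-like cells, against 23.5, 23.7 and 27.1 CPM in chondrocyte-like cells. It had 10.1, 25.04 and 23.1 CPM in osteoblast-like, 4.89, 3.95 and 12.2 CPM in marrow stromal-like and 12.9, 10.4 and 12.7 CPM in blood-like cells. B3gat3, which adds the closing glucuronic acid, had 87.4 and 87.4 CPM in NP-like cells, against 57.96, 79.6 and 79.8 CPM in chondrocyte-like cells. It had 44.6, 125 and 123 CPM in osteoblast-like, 76.7, 33.6 and 44.6 CPM in marrow stromal-like and 38.6, 43.6 and 46.4 CPM in blood-like cells. Both NP-like values of B3gat3 lay above the chondrocyte-like ones and below those of osteoblast-like cells in libraries 2 and 3. B3gat3 was higher in NP-like than in blood-like cells at 1.09 (SE 0.395, adjusted p = 0.0363), and 1.04, 1.34 and 1.103 without libraries 1, 2 and 3, the call being lost without libraries 2 and 3. B4galt7 was called only in chondrocyte-like over blood-like cells, at 1.05 (SE 0.298, adjusted p = 0.00928), and 1.19, 1.100 and 1.03 without libraries 1, 2 and 3, the call being lost without libraries 2 and 3. B3galt6, which adds the second galactose, ranged from 9.79 to 35.0 CPM.

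Chondroitin chains are started by Csgalnact1 or Csgalnact2, which add the first N-acetylgalactosamine and so commit the linker to chondroitin. Csgalnact1 (ENSMUSG00000036356, chr8:68356781-68735146, minus strand) had 149.6 and 321 CPM in NP-like cells, against 66.1, 41.97 and 35.6 CPM in chondrocyte-like cells. It had 8.11, 0.353 and 0.109 CPM in osteoblast-like, 22.8, 3.95 and 5.41 CPM in marrow stromal-like and 2.43, 2.16 and 2.25 CPM in blood-like cells. Both NP-like values were more than any other class reached. The osteoblast-like sums held 4, 1 and 1 UMIs of Csgalnact1 in libraries 1, 2 and 3, so the size of the difference from them is uncertain. Csgalnact1 was higher in NP-like than in osteoblast-like cells at a log2 fold change of 8.29 (SE 0.92, adjusted p = 9.49e-05), and of 10.798, 6.704 and 6.98 without libraries 1, 2 and 3, the call being kept each time. Against marrow stromal-like cells it was higher at 4.37 (SE 0.75, adjusted p = 0.00294), and 6.01, 3.03 and 4.25 without libraries 1, 2 and 3, the call being lost without library 2, and against blood-like cells at 6.51 (SE 0.71, adjusted p = 1.33e-05), and 7.19, 5.41 and 6.77 without libraries 1, 2 and 3, the call being kept each time.

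Against chondrocyte-like cells Csgalnact1 differed by 2.20 (SE 0.62) with an adjusted p of 0.0535, just short of the threshold. It was called higher in NP-like cells without the NP-like cells that met the chondrocyte rule, at 2.30 (adjusted p = 0.0231), and without barcodes found in 2 libraries, at 2.18 (adjusted p = 0.0433). Without library 1, which leaves 1 NP-like sum, the difference was 2.99. Csgalnact1 was not called between these classes without library 2 or 3, or with only the 2 classes in the fit. Csgalnact2 ran against it, with 35.6 and 34.4 CPM in NP-like cells, against 96.7, 97.1 and 88.4 CPM in chondrocyte-like cells. It had 14.2, 29.98 and 30.4 CPM in osteoblast-like, 17.9, 21.7 and 31.1 CPM in marrow stromal-like and 61.3, 30.96 and 30.8 CPM in blood-like cells. Chondrocyte-like cells were above all other sums for Csgalnact2. Csgalnact2 was lower in NP-like than in chondrocyte-like cells at -1.43 (SE 0.397, adjusted p = 0.0491), and -1.44, -1.37 and -1.47 without libraries 1, 2 and 3, the call being lost without libraries 2 and 3.

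Csgalnact1 took most UMIs of the initiating pair in NP-like cells and a minority in chondrocyte-like cells. The share was 80.8 and 90.3% in NP-like cells, against 40.6, 30.2 and 28.7% in chondrocyte-like, 36.4, 1.16 and 0.358% in osteoblast-like, 56, 15.4 and 14.8% in marrow stromal-like and 3.81, 6.53 and 6.799% in blood-like cells. The 95% intervals of the NP-like shares, 75.4 to 85.5% and 87.4 to 92.8%, stood apart from those of chondrocyte-like cells, of which the highest bound was 43.1%. The osteoblast-like share of library 1 rests on 11 UMIs.

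**Figure D3:**
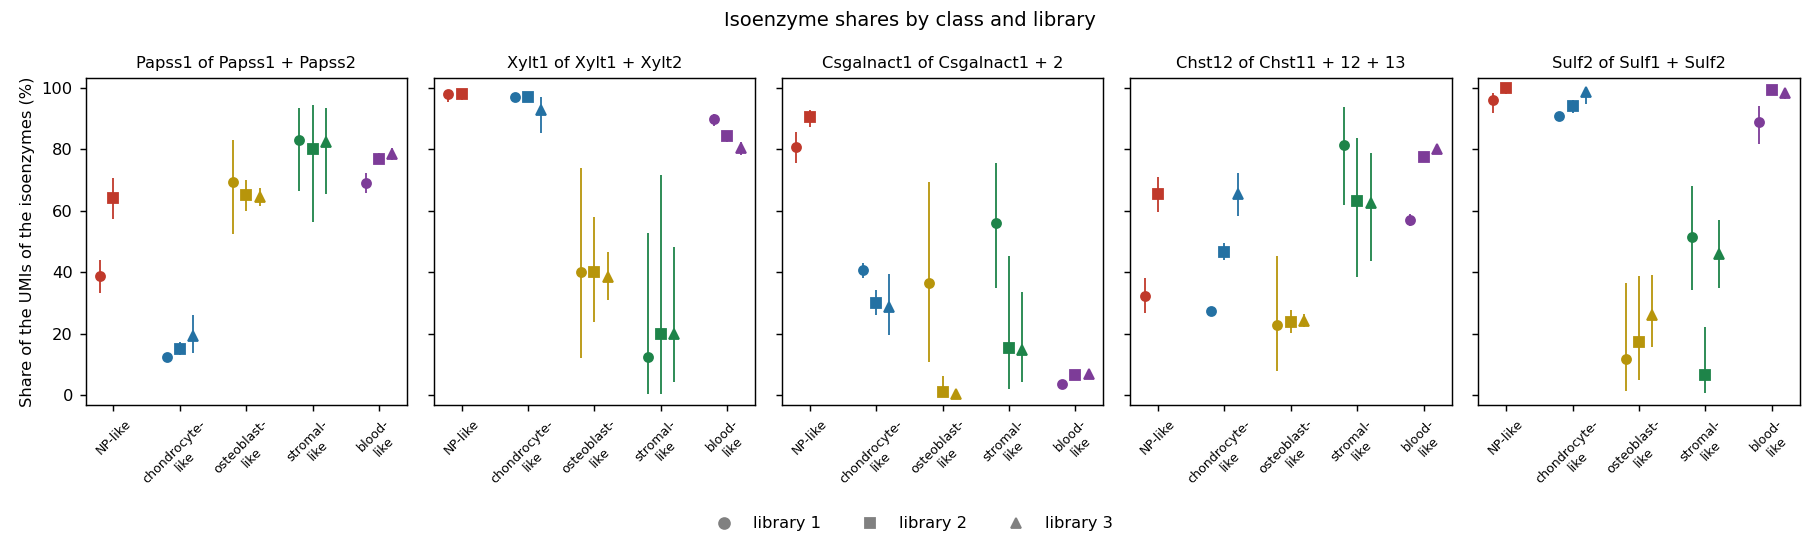
Share (%) that 1 isoenzyme takes of the UMIs of its group in each class, with 1 point per library and bars for 95% exact binomial intervals. NP-like cells stand above chondrocyte-like cells for Papss1 and Csgalnact1, and both stand above osteoblast-like cells for Xylt1 and Sulf2.

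The genes that extend chondroitin chains, Chsy1, Chsy3, Chpf and Chpf2, work as complexes of a synthase with a polymerizing factor. Chsy1 had 12.6 and 8.59 CPM in NP-like cells, against 33.05, 32.01 and 19.95 CPM in chondrocyte-like cells. It had 36.5, 68.1 and 72.4 CPM in osteoblast-like, 14.7, 23.7 and 13.5 CPM in marrow stromal-like and 18.4, 13.6 and 12.7 CPM in blood-like cells. NP-like cells were lowest for Chsy1 in each of libraries 1 and 2. Chsy1 was lower in NP-like than in chondrocyte-like cells at -1.51 (SE 0.41, adjusted p = 0.0454), and -1.77, -1.18 and -1.62 without libraries 1, 2 and 3, the call being lost without libraries 2 and 3. It was lower than in osteoblast-like cells at -2.62 (SE 0.43, adjusted p = 0.00117), and -3.13, -2.23 and -2.35 without libraries 1, 2 and 3, the call being lost without library 2.

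Chpf had 20.7 and 13.6 CPM in NP-like cells, against 73.1, 73.4 and 96.9 CPM in chondrocyte-like cells. It had 28.4, 44.8 and 51.9 CPM in osteoblast-like, 53.8, 5.92 and 55.5 CPM in marrow stromal-like and 2.57, 1.25 and 1.85 CPM in blood-like cells. The chondrocyte-like values of Chpf were all higher than any other sum, and blood-like cells were lowest. In NP-like cells Chpf was lower than in chondrocyte-like cells at -2.14 (SE 0.54, adjusted p = 0.0326), and -2.35, -1.92 and -2.15 without libraries 1, 2 and 3, the call being lost without libraries 2 and 3, and higher than in blood-like cells at 3.33 (SE 0.54, adjusted p = 0.000294), and 3.51, 3.43 and 3.22 without libraries 1, 2 and 3, the call being kept each time. Chpf2 had 23.7 and 11.5 CPM in NP-like cells, against 45.7, 39.8 and 58.4 CPM in chondrocyte-like cells. It had 40.5, 65.6 and 82.4 CPM in osteoblast-like, 19.6, 11.8 and 28.4 CPM in marrow stromal-like and 12.8, 12.1 and 11.98 CPM in blood-like cells. Osteoblast-like and chondrocyte-like cells overlapped at the top for Chpf2, and it was lower in NP-like than in osteoblast-like cells at -1.76 (SE 0.38, adjusted p = 0.00669), and -2.51, -1.12 and -1.695 without libraries 1, 2 and 3, the call being lost without library 2. Without the NP-like cells that met the chondrocyte rule it was -2.41.

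Chsy3 separated libraries as well as classes. It had 5.93 and 94.5 CPM in NP-like cells, against 6.98, 56.5 and 41.3 CPM in chondrocyte-like cells. It had 4.05, 16.9 and 13.02 CPM in osteoblast-like, 0, 21.7 and 25.7 CPM in marrow stromal-like and 0.0347, 0.146 and 0.11 CPM in blood-like cells. Library 1 was lowest in all 5 classes, and the matrix header of library 1 names software version 3.0.1 where those of libraries 2 and 3 name 6.0.0, so that library and software version cannot be told apart. Within library 2 NP-like cells were highest. Against blood-like cells, where Chsy3 was at most 0.15 CPM, NP-like cells were higher at 8.98 (SE 0.51, adjusted p = 1.93e-07), and 9.35, 8.17 and 8.85 without libraries 1, 2 and 3, the call being kept each time. The calls over osteoblast-like cells, 2.23 (SE 0.44, adjusted p = 0.00368), and marrow stromal-like cells, 1.73 (SE 0.47, adjusted p = 0.0293), were lost without library 2, at 1.39 and 0.93, and without library 3, at 2.10 and 2.17.

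**Figure D4:**
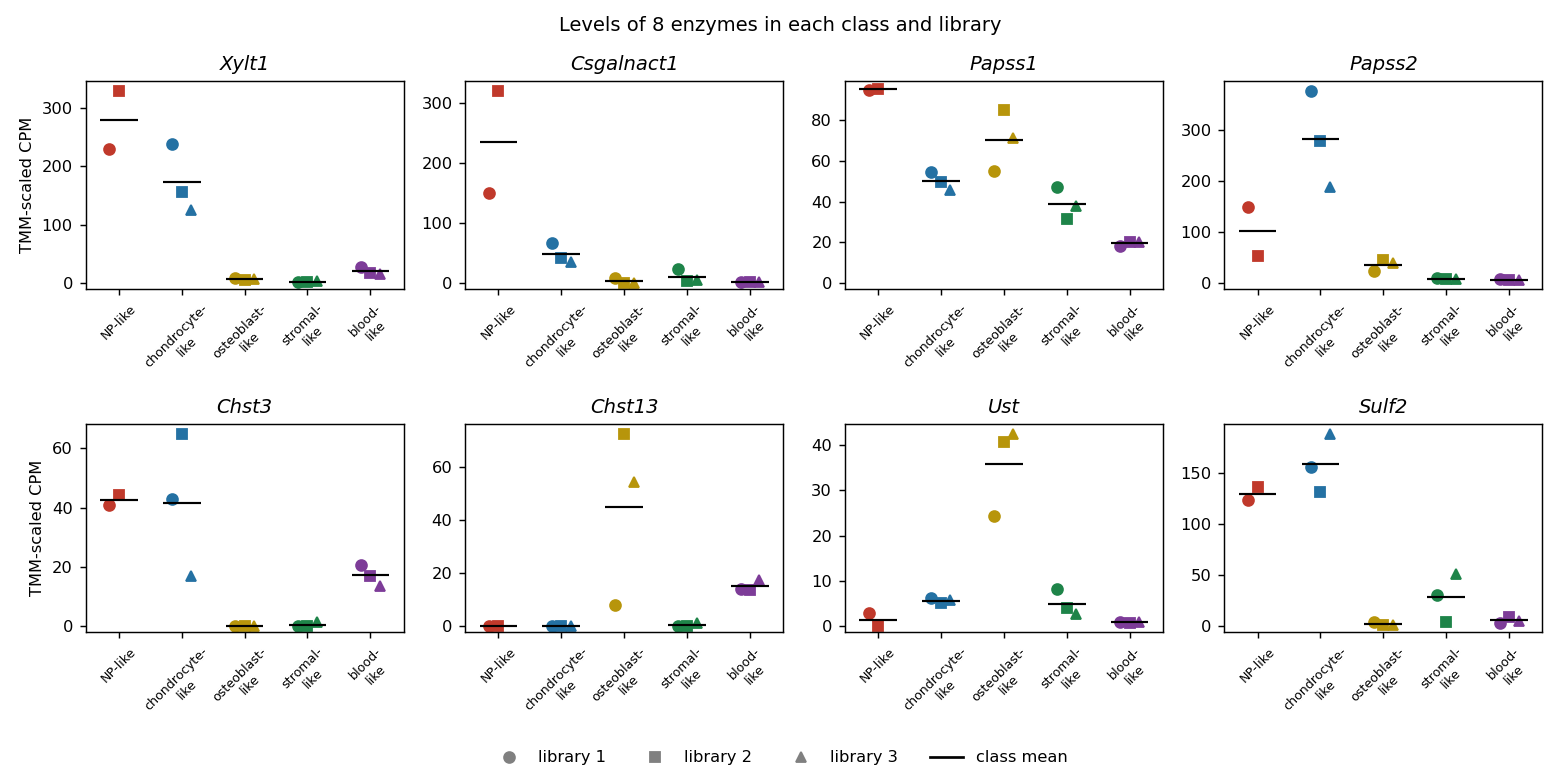
TMM-scaled CPM of 8 genes, with 1 point per library and a line at the class mean. NP-like cells are highest for Csgalnact1 and Papss1, chondrocyte-like cells for Papss2, and osteoblast-like cells for Chst13 and Ust.

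The mRNAs of a 6-O-sulfotransferase of chondroitin, Chst3, and of a 4-O-sulfotransferase, Chst13, differed between the disc classes and osteoblast-like cells. Chst3 (ENSMUSG00000057337, chr10:60181532-60219260, minus strand), the 6-O-sulfotransferase, had 40.7 and 44.4 CPM in NP-like cells, against 42.7, 64.8 and 17.1 CPM in chondrocyte-like cells. It had 0, 0 and 0 CPM in osteoblast-like, 0, 0 and 1.35 CPM in marrow stromal-like and 20.7, 17.1 and 13.6 CPM in blood-like cells. No UMI of Chst3 was counted in any of the 3 osteoblast-like sums. Against a floor of 3 UMIs over libraries 1 and 2, Chst3 was at least 47.2-fold higher in NP-like than in osteoblast-like cells, and over 3 libraries it was at least 196-fold higher in chondrocyte-like than in osteoblast-like cells. Both differences were called (adjusted p = 5.48e-05 and 2.48e-05) and stayed called when any 1 library was left out. NP-like and chondrocyte-like cells overlapped, and their difference of -0.17 (SE 0.39, adjusted p = 0.873) was not called.

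Chst13 (ENSMUSG00000056643, chr6:90308349-90325185, minus strand), 1 of the 3 chondroitin 4-O-sulfotransferases, showed the opposite picture. It had 0 and 0 CPM in NP-like cells, against 0.104, 0 and 0 CPM in chondrocyte-like cells. It had 8.11, 72.3 and 54.4 CPM in osteoblast-like, 0, 0 and 1.35 CPM in marrow stromal-like and 13.9, 13.6 and 17.4 CPM in blood-like cells. The NP-like sums held no UMI of Chst13 and the chondrocyte-like sums 1. Against the same floor over libraries 1 and 2 it was at least 57.6-fold lower in NP-like than in osteoblast-like cells (adjusted p = 0.000634), the call being lost without library 2, and at least 12.5-fold lower than in blood-like cells (adjusted p = 0.00111). In chondrocyte-like cells the ratio was 794-fold lower than in osteoblast-like cells, with a counting interval of 142 to 31410, from 1 against 706 UMIs.

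The windows before the starts of Chst3 and Chst13 are shown because these 2 genes were close to mutually exclusive between the disc classes and osteoblast-like cells. They are RefSeq windows of 250 bases in GRCm38.p6, with the same 2 motifs searched on both strands.
Chst3 (chr10:60219261-60219510, minus strand): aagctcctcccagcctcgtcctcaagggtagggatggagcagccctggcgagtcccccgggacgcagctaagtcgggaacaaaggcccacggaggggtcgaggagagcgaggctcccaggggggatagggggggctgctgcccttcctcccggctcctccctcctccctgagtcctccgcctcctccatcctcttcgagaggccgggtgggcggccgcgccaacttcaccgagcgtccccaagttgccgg
Chst13 (chr6:90325186-90325435, minus strand): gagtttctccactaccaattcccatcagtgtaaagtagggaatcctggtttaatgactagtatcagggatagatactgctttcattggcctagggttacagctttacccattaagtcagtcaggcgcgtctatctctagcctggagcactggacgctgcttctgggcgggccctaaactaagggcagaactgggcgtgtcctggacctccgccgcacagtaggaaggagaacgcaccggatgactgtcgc
Neither window held ACAAT or TGTGGT, so no letter is capitalised. Chst3's window was 69.6% and Chst13's 52.8% G and C, with 18 and 10 CG pairs, against a median of 6 over all windows. No letters beyond these windows were searched.

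The other 4-O-sulfotransferases were found in both disc classes. Chst11, which mouse cartilage needs for normal growth, had 134 and 70.2 CPM in NP-like cells, against 273, 169 and 95.5 CPM in chondrocyte-like cells. It had 26.4, 61.7 and 66.2 CPM in osteoblast-like, 8.16, 13.8 and 14.9 CPM in marrow stromal-like and 25.8, 9.76 and 9.76 CPM in blood-like cells. In libraries 1 and 2 chondrocyte-like cells were above NP-like cells, though the chondrocyte-like value of library 3 fell between the 2 NP-like values. Chst11 was higher in NP-like than in blood-like cells at 2.69 (SE 0.502, adjusted p = 0.000849), and 2.79, 2.89 and 2.57 without libraries 1, 2 and 3, the call being kept each time, and higher than in marrow stromal-like cells at 2.85 (SE 0.61, adjusted p = 0.00999), and 2.16, 3.26 and 3.17 without libraries 1, 2 and 3, the call being lost without library 2. Chst12 had 63.7 and 133 CPM in NP-like cells, against 102, 149 and 181 CPM in chondrocyte-like cells. It had 10.1, 41.97 and 38.6 CPM in osteoblast-like, 35.9, 23.7 and 27.1 CPM in marrow stromal-like and 52.7, 81.1 and 109.5 CPM in blood-like cells. Blood-like cells overlapped both disc classes for Chst12, and it was higher in NP-like than in osteoblast-like cells at 1.796 (SE 0.38, adjusted p = 0.00618), and 1.84, 1.87 and 1.86 without libraries 1, 2 and 3, the call being lost without library 2.

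Ust and Chst15, which add further sulfate, were low in NP-like cells. Ust, the uronyl 2-O-sulfotransferase, had 2.96 and 0 CPM in NP-like cells, against 6.26, 5.11 and 5.7002 CPM in chondrocyte-like cells. It had 24.3, 40.6 and 42.5 CPM in osteoblast-like, 8.16, 3.95 and 2.71 CPM in marrow stromal-like and 0.868, 0.796 and 0.864 CPM in blood-like cells. Osteoblast-like cells were above every other class for Ust, and NP-like sums held 4 UMIs in library 1 and none in library 2. Ust was lower in NP-like than in osteoblast-like cells at -4.69 (SE 0.69, adjusted p = 0.00055), and -3.51 and -4.58 without libraries 2 and 3, the call being lost without library 2. Without the NP-like cells that met the chondrocyte rule it was -5.33. It was lower in chondrocyte-like than in osteoblast-like cells at -2.73 (SE 0.43, adjusted p = 0.00076), and -2.95, -2.47 and -2.61 without libraries 1, 2 and 3, the call being kept each time.

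Chst15, which adds a 6-O-sulfate to 4-sulfated units, had 8.89 and 3.58 CPM in NP-like cells, against 30.9, 13.99 and 8.55 CPM in chondrocyte-like cells. It had 14.2, 19.8 and 23.3 CPM in osteoblast-like, 22.8, 15.8 and 28.4 CPM in marrow stromal-like and 17.4, 19.3 and 19.8 CPM in blood-like cells. Except for the chondrocyte-like sum of library 3, all sums of the other classes were above both NP-like values. Chst15 was lower in NP-like than in blood-like cells at -1.65 (SE 0.52, adjusted p = 0.0187), and -2.35, -1.005 and -1.62 without libraries 1, 2 and 3, the call being lost without library 2. It was also called lower than in osteoblast-like cells, at -1.78, and marrow stromal-like cells, at -1.89, and both calls were lost without library 2 and without library 3. Without the NP-like cells that met the chondrocyte rule these 3 differences were -2.31, -2.48 and -2.64. Dse, the epimerase that turns chondroitin into dermatan, had 23.7 and 7.88 CPM in NP-like cells, against 37.4, 36.3 and 28.5 CPM in chondrocyte-like cells. It had 14.2, 11.99 and 12.9 CPM in osteoblast-like, 19.6, 27.6 and 64.9 CPM in marrow stromal-like and 2.46, 6.57 and 3.24 CPM in blood-like cells. Chondrocyte-like values of Dse lay above both NP-like values, and blood-like cells were lowest. Dse was higher in NP-like than in blood-like cells at 2.02 (SE 0.597, adjusted p = 0.0141), and 0.64, 3.37 and 1.83 without libraries 1, 2 and 3, the call being lost without library 1. Chst14, the dermatan 4-O-sulfotransferase, ranged from 0.97 to 13.7 CPM with its highest value in osteoblast-like cells of library 3.

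Heparan sulfate is polymerised by Ext1 and Ext2 and carries sulfate that the extracellular endosulfatases Sulf1 and Sulf2 remove. Sulf2 (ENSMUSG00000006800, chr2:166073089-166155663, minus strand) had 123 and 136 CPM in NP-like cells, against 156, 131 and 188 CPM in chondrocyte-like cells. It had 4.05, 1.41 and 1.75 CPM in osteoblast-like, 30.996, 3.95 and 51.4 CPM in marrow stromal-like and 3.61, 9.23 and 4.84 CPM in blood-like cells. Both disc classes were above 120 CPM in every sum and osteoblast-like cells under 5 CPM. Sulf2 was higher in NP-like than in osteoblast-like cells at 6.38 (SE 0.74, adjusted p = 0.000117), and 6.51, 6.26 and 6.04 without libraries 1, 2 and 3, the call being kept each time. It was higher in chondrocyte-like than in osteoblast-like cells at 6.55 (SE 0.702, adjusted p = 5.47e-05), and 6.61, 6.56 and 6.18 without libraries 1, 2 and 3, the call being kept each time. Against blood-like cells NP-like cells were higher at 4.55 (SE 0.57, adjusted p = 3.92e-05), and 4.38, 5.16 and 4.32 without libraries 1, 2 and 3, the call being kept each time.

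Sulf1 was highest on average in marrow stromal-like cells. It had 5.18 and 0 CPM in NP-like cells, against 15.8, 8.34 and 2.85 CPM in chondrocyte-like cells. It had 30.4, 6.701 and 4.92 CPM in osteoblast-like, 29.4, 55.3 and 60.9 CPM in marrow stromal-like and 0.451, 0.0663 and 0.0823 CPM in blood-like cells. Marrow stromal-like cells of libraries 2 and 3 were above every other sum, and library 1 was close to the osteoblast-like sum of that library. Sulf1 was lower in NP-like than in marrow stromal-like cells at -4.92 (SE 0.99, adjusted p = 0.00701), the call being lost without library 2 at -4.12, and the NP-like sums held 7 UMIs in library 1 and none in library 2. Its call as higher in NP-like than in blood-like cells (3.54, adjusted p = 0.0366) turned to -3.69 without library 1, where the NP-like class held no UMI, and was lost when any 1 library was left out. Without the NP-like cells that met the chondrocyte rule it was 2.88 (adjusted p = 0.183) and was lost as well, and the difference from marrow stromal-like cells was -5.67. Sulf2 took 95.95 and 100% of the UMIs of the pair in NP-like and 90.8, 94.02 and 98.5% in chondrocyte-like cells, against 11.8, 17.4 and 26.2% in osteoblast-like, 51.4, 6.67 and 45.8% in marrow stromal-like and 88.9, 99.3 and 98.3% in blood-like cells.

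The polymerases were found in every class and were lowest in blood. Ext1 had 28.1 and 39.4 CPM in NP-like cells, against 28.98, 26.1 and 24.2 CPM in chondrocyte-like cells. It had 40.5, 27.5 and 24.6 CPM in osteoblast-like, 27.7, 25.7 and 28.4 CPM in marrow stromal-like and 7.78, 10.2 and 10.6 CPM in blood-like cells. Ext2 had 54.1 and 56.6 CPM in NP-like cells, against 51.9, 57.3 and 54.2 CPM in chondrocyte-like cells. NP-like and chondrocyte-like values lay close together for both genes. Ext2 had 64.9, 66.7 and 83.3 CPM in osteoblast-like, 27.7, 43.4 and 66.3 CPM in marrow stromal-like and 17.8, 18.6 and 21.96 CPM in blood-like cells. Ext1 and Ext2 were higher in NP-like than in blood-like cells at 1.803 (SE 0.29, adjusted p = 0.000307) and 1.63 (SE 0.26, adjusted p = 0.000271), and these calls were kept when any 1 library was left out.

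Extl3, which starts heparan chains, was highest in marrow stromal-like cells. It had 17.8 and 5.01 CPM in NP-like cells, against 23.4, 16.7 and 21.4 CPM in chondrocyte-like cells. It had 22.3, 13.05 and 12.5 CPM in osteoblast-like, 48.9, 35.5 and 47.3 CPM in marrow stromal-like and 5.87, 6.47 and 5.85 CPM in blood-like cells. Extl3 was lower in NP-like than in marrow stromal-like cells at -2.05 (SE 0.41, adjusted p = 0.00696), and -3.06, -1.53 and -1.97 without libraries 1, 2 and 3, the call being lost without libraries 2 and 3. Hs2st1, the 2-O-sulfotransferase, had 7.41 and 12.2 CPM in NP-like cells, against 19.5, 13.5 and 11.4 CPM in chondrocyte-like cells. It had 34.5, 22.2 and 20.7 CPM in osteoblast-like, 27.7, 17.8 and 28.4 CPM in marrow stromal-like and 12.2, 9.82 and 11.3 CPM in blood-like cells. It was lower in NP-like than in osteoblast-like cells at -1.34 (SE 0.37, adjusted p = 0.026), and -0.74, -1.97 and -1.45 without libraries 1, 2 and 3, the call being lost without libraries 1, 2 and 3. Ndst1 and Ndst2, the N-deacetylase and N-sulfotransferases, and Hs6st1, the 6-O-sulfotransferase, were called in no comparison and ranged from 9.09 to 56.8, from 2.22 to 14.2 and from 3.53 to 33.6 CPM.

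The blood-like class is a mixture, and some of its members carried single enzymes strongly. By the same kind of marker rule it held neutrophil-like, B lineage-like and monocyte or macrophage-like cells, whose levels are in unscaled CPM. Chst3 had 124, 74.99 and 53.1 CPM in B lineage-like cells, against 0.271, 0.285 and 0.224 CPM in neutrophil-like and 0, 0.803 and 0.165 CPM in monocyte or macrophage-like cells. Every B lineage-like value was thus above every other blood value, and also above the NP-like values of 41.9 and 44.1 CPM in this unit. Chst13 had 11.3, 14.6 and 17.2 CPM in neutrophil-like cells, against 0.259, 1.34 and 1.56 CPM in B lineage-like and 1.63, 1.25 and 3.31 CPM in monocyte or macrophage-like cells. Chst12, too, was highest in neutrophil-like cells, at 42.8, 83.1 and 111 CPM.

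Monocyte or macrophage-like cells held Dse at 20.4, 24.4 and 18.5 CPM and Sulf2 at 17.97, 31.2 and 23.8 CPM, where B lineage-like and neutrophil-like cells had at most 0.542 and 1.86 CPM. Chst15 was highest in B lineage-like cells at 31.6, 24.2 and 23.6 CPM. Csgalnact1 was found in B lineage-like cells at 5.703, 6.34 and 7.03 CPM and at 0.89 CPM or less in the other subsets. These subsets were given no test. Free RNA from broken cells adds UMIs to every droplet, and Col2a1, a cartilage collagen, was used to gauge it. The ratio of blood-like over chondrocyte-like CPM of Col2a1 was 0.00151 in library 1, 0.00036 in library 2 and 6.93e-05 in library 3. All 36 genes in library 1 stood at a higher ratio, as did all but Chst13 in libraries 2 and 3, where the chondrocyte-like sums held no UMI of Chst13. Acan, the aggrecan gene, did so too, at 0.00241, 0.00088 and 0.00013 in libraries 1, 2 and 3. A higher ratio than that of Col2a1 thus does not by itself show that blood-like cells made the RNA. For Chsy3 in library 1 the ratio rests on 1 UMI in blood-like cells.

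**Figure D5:**
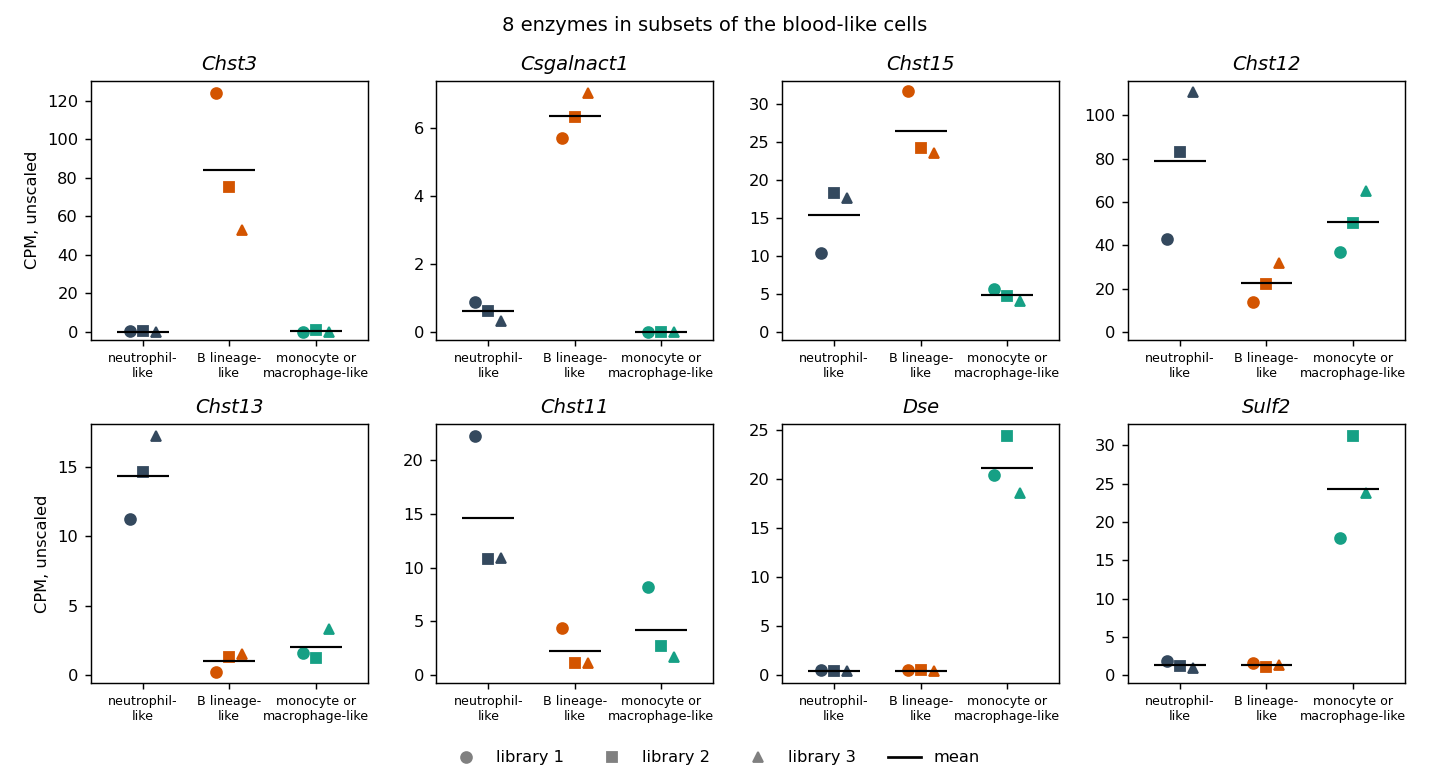
Unscaled CPM of 8 genes in 3 subsets of the blood-like cells, with 1 point per library and a line at the mean. Chst3, Csgalnact1 and Chst15 are highest in B lineage-like cells, Chst12, Chst13 and Chst11 in neutrophil-like cells, and Dse and Sulf2 in monocyte or macrophage-like cells.

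Other genes around the pathway were read from 3 lists. Of 27 further synthesis genes, 23 were tested, and none was higher and 4 were lower in NP-like than in chondrocyte-like cells, where 4.63% and 2.66% of all genes were called. Among the 4 were Extl1 at -3.05 (SE 0.71, adjusted p = 0.0288), Chst1 at -2.33 (SE 0.54, adjusted p = 0.0219) and, named after its values were seen, Gfpt1 at -1.098 (SE 0.28, adjusted p = 0.0345). Each of these 3 calls was kept without library 1 and lost without libraries 2 and 3, Chst1 being -3.56 without library 1 and -1.52 without library 2. Chst1, which sulfates keratan chains, had 26.7 and 7.16 CPM in NP-like cells, against 56.5, 78.02 and 105 CPM in chondrocyte-like cells. It had 2.03, 0.705 and 0.328 CPM in osteoblast-like, 0, 0 and 1.35 CPM in marrow stromal-like and 0.625, 0.371 and 0.315 CPM in blood-like cells. Both disc classes were above all other sums for Chst1.

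Of the 23 further synthesis genes, 7 were higher and 3 lower in NP-like than in osteoblast-like cells, where 11% and 7.86% of all genes were called. Against marrow stromal-like cells 8 were higher and 1 lower, beside 7.56% and 6.21% of all genes, and against blood-like cells 18 and 0, beside 24.1% and 25.9%. Hs3st3a1, a heparan 3-O-sulfotransferase, had 28.9 and 10.03 CPM in NP-like cells, against 65.9, 44.9 and 49.9 CPM in chondrocyte-like cells. It had 2.03, 0 and 0 CPM in osteoblast-like, 0, 0 and 1.35 CPM in marrow stromal-like and 0.139, 0.106 and 0.0137 CPM in blood-like cells. Every disc value of Hs3st3a1 was at least 10.0 CPM and every other value at most 2.03 CPM. Hs3st3a1 was higher in NP-like than in blood-like cells at 7.47 (SE 0.66, adjusted p = 2.65e-06), and 7.197, 8.44 and 7.03 without libraries 1, 2 and 3, the call being kept each time. Chst5, another keratan sulfotransferase, was higher in NP-like than in blood-like cells at 7.74 (SE 0.87, adjusted p = 1.74e-05), and 8.44, 8.01 and 7.100 without libraries 1, 2 and 3, the call being kept each time. Chst5 had 63.7 and 27.9 CPM in NP-like cells, against 145, 251 and 228 CPM in chondrocyte-like cells. Has1, a hyaluronan synthase, was called higher in NP-like than in blood-like cells at 5.97 and turned to -2.50 without library 1. Chondrocyte-like cells had 13 of the 23 higher and 4 lower than osteoblast-like cells (10.4% and 7.65% of all genes) and 20 higher and 0 lower than blood-like cells (26.1% and 31.7%).

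Core proteins carry the chains, and 4 of them were called higher in NP-like than in chondrocyte-like cells. Of 27 listed 25 were tested, and 1 was lower, where 4.63% and 2.66% of all genes were called higher and lower. Gpc3, a membrane-anchored glypican, had 121 and 272 CPM in NP-like cells, against 3.96, 6.46 and 8.55 CPM in chondrocyte-like cells, with no overlap. It was higher in NP-like cells at 5.07 (SE 0.51, adjusted p = 0.000159), and 5.26, 4.55 and 5.22 without libraries 1, 2 and 3, the call being lost without library 2. Cd44, the hyaluronan receptor, was higher at 2.54 (SE 0.36, adjusted p = 0.00137), and 2.43, 2.68 and 2.47 without libraries 1, 2 and 3, the call being lost without library 2. Cd44 had 73.3 and 27.2 CPM in NP-like cells, against 12.3, 5.38 and 4.28 CPM in chondrocyte-like cells. Ogn, a small leucine-rich protein, was lower at -2.66 (SE 0.62, adjusted p = 0.0236), and -3.003, -2.36 and -2.44 without libraries 1, 2 and 3, the call being lost without libraries 2 and 3. Gpc4 and Srgn, named after their values were seen, were also higher and were lost without libraries 2 and 3, at 1.88 (SE 0.37, adjusted p = 0.0102) and 1.75 (SE 0.46, adjusted p = 0.0407). Acan, the aggrecan core that bears most chondroitin sulfate in the disc, had 4952 and 7611 CPM in NP-like cells, against 3753, 2790.0 and 2291 CPM in chondrocyte-like cells. The NP-like values of Acan were above all others, though the gene was not called between these 2 classes. In NP-like cells 9 core proteins were higher and 5 lower than in osteoblast-like cells (11% and 7.86% of all genes), 6 and 3 than in marrow stromal-like cells (7.56% and 6.21%) and 18 and 2 than in blood-like cells (24.1% and 25.9%). The largest calls against osteoblast-like cells were Acan at 9.53 (SE 1.45, adjusted p = 0.000706) and Prelp at 8.03 (SE 1.03, adjusted p = 0.000225), with Lum lower at -6.39 (SE 1.198, adjusted p = 0.00275), and against marrow stromal-like cells Acan at 8.61 (SE 1.49, adjusted p = 0.00301), Cspg4 at 4.26 (SE 0.57, adjusted p = 0.000687) and Sdc4 at 3.84 (SE 0.33, adjusted p = 5.08e-05). Without library 2 the calls of Acan in both and of Cspg4 were lost, while those of Prelp, Lum and Sdc4 were kept when any 1 library was left out. Chondrocyte-like cells had 11 higher and 6 lower than osteoblast-like cells (10.4% and 7.65% of all genes) and 22 and 2 than blood-like cells (26.1% and 31.7%).

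The 15 lysosomal and extracellular genes of breakdown, all tested, gave 1, 2 and 3 calls in NP-like against chondrocyte-like, osteoblast-like and marrow stromal-like cells and 8 against blood-like cells, where 7.29%, 18.8%, 13.8% and 50% of all genes were called. These counts were close to those shares. None was higher and 1 (Gusb, the beta-glucuronidase) was lower in NP-like than in chondrocyte-like cells, at -1.21 (SE 0.27, adjusted p = 0.0204), and -1.51, -0.93 and -1.21 without libraries 1, 2 and 3, the call being lost without libraries 2 and 3. None was higher and 2 were lower than in osteoblast-like cells, among them Galns, which removes 6-sulfate from chondroitin and keratan, at -4.38 (SE 0.77, adjusted p = 0.00189), and -2.82 and -4.31 without libraries 2 and 3, the call being lost without library 2. Against marrow stromal-like cells 2 were higher and 1 lower in NP-like cells. Against blood-like cells 3 were higher, with Ids at 3.07 (SE 0.54, adjusted p = 0.000534), and 5 lower, with Galns at -5.85 (SE 0.69, adjusted p = 2.49e-05), -4.50 without library 2, and Hpse at -2.68 (SE 0.87, adjusted p = 0.0219). The call of Hpse was lost without library 2. Galns had 1.48 and 0 CPM in NP-like cells, against 3.65, 6.19 and 11.4 CPM in chondrocyte-like cells. It had 8.11, 20.1 and 22.98 CPM in osteoblast-like, 3.26, 9.87 and 8.12 CPM in marrow stromal-like and 45.5, 43.8 and 53.98 CPM in blood-like cells. Blood-like cells were above all other sums for Galns, and NP-like cells below all others. Chondrocyte-like cells had 2 higher and 1 lower than osteoblast-like and 3 higher and 5 lower than blood-like cells, where 18.1% and 57.8% of all genes were called in either direction.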

How the data were processed

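Single-cell RNA was measured with 10x Genomics 3′ v3 libraries, per the labels' protocols. The authors deposited raw UMI counts per gene and barcode, 7430, 11767 and 11032 barcodes with 64695292, 145925353 and 137188648 UMIs in libraries 1, 2 and 3. Per the file headers the counting software was version 3.0.1 for library 1 and 6.0.0 for libraries 2 and 3, while the submitters' processing notes name Cell Ranger 3.0.2, Seurat 4 and mm10. Libraries 2 and 3 list 32285 genes and library 1 lists 31053, and the 30406 shared ones were used.

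Cells with at least 500 genes and at most 15% mitochondrial counts were kept, and doublets were called per library with Scrublet in scanpy 1.11.5 on the shared genes (85, 562 and 445 cells, or 1.48%, 5.21% and 4.29%), which left 5647, 10224 and 9919 cells. A cell with 3 markers of a class joined it, and a cell in 2 classes joined none. Chondrocyte-like cells could hold at most 1 NP marker, and marrow stromal-like cells fewer than 2 of Pecam1, Cdh5, Emcn and Kdr. NP-like cells had no limit on chondrocyte markers, and those said to meet the chondrocyte rule held at least 3 of them. Sums of at least 10 cells (14 sums) entered 1 fit in edgeR 4.0.16 (R 4.3.3): quasi-likelihood test, filterByExpr, TMM, class plus library, Benjamini-Hochberg over 13310 genes, 7 residual degrees of freedom, 6 comparisons. The library is a block because sums of 1 library come from the same pool of animals. The p-values weigh a class difference against the spread left after class and library effects, with 1 estimate shared by all 5 classes. In counts simulated for NP-like against chondrocyte-like cells over 12642 genes, 98% of genes with a log2 change of 2, 70% at -2, 8% at 1 and 6% at -1 were called. Intervals and the floor of 3 counts cover counting error only.

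The 36 genes and the lists were chosen with earlier results of these data known. Values in every library are given for up to 30 called genes, by largest log2 fold change, whose highest class averaged 20 CPM or more, and for the 3 largest calls of other lists the values or fold changes. Epyc was left out of the core proteins because it marks a class. Gene positions are from GENCODE in mm10. The values of 1 gene of the further synthesis list are not reported here.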

Additional observations from a re-analysis of the deposited data

How the results depend on the processing

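The count of the 36 genes called in NP-like against chondrocyte-like cells, 4 in the fit as reported, was the least stable. It was 7 with doublets at a preset rate, 8 with a minimum of 200 genes, 11 with no mitochondrial floor, 9 with 1 more marker per class, 8 without NP-like cells that met the chondrocyte rule, 7 without barcodes found in 2 libraries, 7 with DESeq2, 8 with every sum kept, and 1 with only the 2 classes in the fit. Without the replicate block (the pairing of sums by library) it was 1. Calls over all genes moved as well in these settings, between 327 of 9515 (only the 2 classes) and 1918 of 12666 (no mitochondrial floor). The fit as reported called 970 of 13310. The settings on shared barcodes and on keeping every sum were added after seeing the data. Leaving out 1 library gave 0 to 13 calls there, 4 to 16 against osteoblast-like, 2 to 16 against marrow stromal-like and 16 to 18 against blood-like cells, and 9 to 19 and 22 to 29 for chondrocyte-like against osteoblast-like and blood-like cells. With only the 2 classes in the fit, NP-like against marrow stromal-like cells gave 1 call in place of 16. Over all genes that fit called 186 of 7132 in place of 1832 of 13310. Leaving out 1 library moved the calls over all genes as well. The remaining counts of the 36 genes were within 1.5 times those reported. The cause was not tested, except that leaving out library 1 or 2 leaves 1 NP-like sum. Of 2178 alternative values for the 99 called differences among the 36 genes, 2019 kept their call, 158 lost it and 1 reversed, Sulf1 in NP-like against blood-like cells, which ran from -3.69 (without library 1) to 3.99 when 1 library was left out. Of 1170 values for 54 named calls of other lists, 1048 kept their call, 121 lost it and 1 reversed, Has1 in NP-like against blood-like cells, from -2.50 (without library 1) to 6.24. Unscaled library totals moved the median of all genes by more than 0.1 in 5 of the 6 comparisons, most in NP-like against marrow stromal-like cells, at -0.59 against -0.05 with TMM. The split there was then 7 higher and 5 lower in place of 12 and 4. Depth limits low genes, and the smallest sums were osteoblast-like of library 1 (369314 UMIs) and marrow stromal-like of libraries 1, 2 and 3 (396407, 372815 and 491252 UMIs).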

Other observations

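Library 3 held 8 NP-like cells with 40587 UMIs, too few for the fit. In unscaled CPM, the unit of this paragraph, this sum had Xylt1 at 345, Csgalnact1 at 197, Papss1 at 172 and Papss2 at 98.6, against 236 and 328, 154 and 319, 97.6 and 94.7 and 155 and 52.7 in libraries 1 and 2. Cells with the NP markers but under 1% mitochondrial counts numbered 430, 33 and 17 and were left out of the NP-like class. In library 1 these cells outnumbered the 109 NP-like cells. There they had Csgalnact1 at 128, Papss1 at 147, Xylt1 at 60.2 and Papss2 at 29.04.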
